A study of Mus musculus with 6 samples.

Results

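The Nanos genes of the mouse, Nanos1, Nanos2 and Nanos3, were followed through 6 one-colour arrays of E14.5 male gonads. They are 3 of the 16535 genes that could be named on the arrays. Every non-control probe whose design accession belongs to one of them was taken. This gave 4 probes of 41174, namely A_52_P231232 and A_52_P201800 for Nanos1, A_52_P624495 for Nanos2 and A_51_P105480 for Nanos3. All 4 probes were among the 26712 tested. To be tested, a probe had to be detected (well above background by the scanner software) on both arrays of some genotype. Detection failed in 1 genotype for each of 2 probes, the second Nanos1 probe and that of Nanos2. These 2 probes were tested only through the genotypes where they were higher, so that the filter favoured that direction. Each probe was present as 1 spot, and none of these spots was saturated or marked as an outlier.

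The study asked whether NANOS2 lacking its first 10 residues (NANOS2-ΔN10), which the study used as a form without CCR4-NOT binding, could stand in for the intact protein. The genotypes compared, with 2 arrays each, were Nanos2+/- with 1 intact allele, Nanos2-/- with none and Nanos2-/-_Tg+, which is Nanos2-/- carrying a transgene for 3×FLAG-tagged NANOS2-ΔN10. The transgene was driven by the upstream enhancer sequence of Nanos2 itself and kept a 3′-UTR, and the study worked further with 1 of its lines. The knockout parents were described as carrying a LacZ allele of Nanos2. All embryos were males at E14.5 on a mixed ICR and N2 background, and 0.20 µg of total RNA of whole gonads was labelled with Cy3 for each array. No wild-type gonad was among the arrays, so that Nanos2+/- served as the control. The labels call the 2 arrays of a genotype biological duplicates and do not say how many embryos each holds.

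Nanos proteins are RNA-binding proteins with a conserved zinc finger domain of the CCHC type, and they repress chosen mRNAs by bringing them to the CCR4-NOT complex, which shortens poly(A) tails. Nanos3 is needed early, for the survival of migrating primordial germ cells. Nanos2 is switched on in germ cells of the fetal testis, where it holds back meiosis and promotes the male programme, and it later serves in spermatogonial stem cells. Nanos1 is known mainly from the nervous system and is dispensable for fertility in the mouse.

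The genes lie on 3 chromosomes of the GRCm38.p6 build. Nanos1 spans chr19:60755987-60759914 (3928 bases) and Nanos2 spans chr7:18987524-18988962 (1439 bases), both on the plus strand. Nanos3 spans chr8:84173733-84176552 (2820 bases) on the minus strand. The 250 bases before each annotated start are printed because the enhancer sequence used for the transgene comes from upstream of Nanos2, and because the 3 members differ clearly there. They were taken from RefSeq and lie at chr19:60755737-60755986, chr7:18987274-18987523 and chr8:84176553-84176802. Capitals mark matches on either strand to the core of a TATA box (searched as TATAA), to a GC box (searched as GGGCGG) and to a CCAAT box (searched by the letters of its name).
Nanos1: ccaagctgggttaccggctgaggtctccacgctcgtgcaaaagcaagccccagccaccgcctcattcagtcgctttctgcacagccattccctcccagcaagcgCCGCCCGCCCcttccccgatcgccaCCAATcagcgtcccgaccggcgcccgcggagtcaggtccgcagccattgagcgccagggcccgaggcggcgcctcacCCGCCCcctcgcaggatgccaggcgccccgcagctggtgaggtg
Nanos2: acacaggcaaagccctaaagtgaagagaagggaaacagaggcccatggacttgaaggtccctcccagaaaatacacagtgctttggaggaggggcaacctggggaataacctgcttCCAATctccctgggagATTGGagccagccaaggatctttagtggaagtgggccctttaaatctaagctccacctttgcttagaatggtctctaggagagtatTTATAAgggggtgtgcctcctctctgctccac
Nanos3: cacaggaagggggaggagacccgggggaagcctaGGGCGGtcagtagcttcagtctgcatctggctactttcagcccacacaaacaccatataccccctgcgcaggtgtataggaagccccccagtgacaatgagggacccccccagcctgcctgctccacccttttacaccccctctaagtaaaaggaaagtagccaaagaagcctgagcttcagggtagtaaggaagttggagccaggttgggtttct

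The Nanos1 window was 70.4% G and C with 25 CpG dinucleotides, against medians of 52.4% and 6 over all promoter windows. The Nanos2 window held 50.8% G and C and 0 CpG, and the Nanos3 window 56.4% and 3 CpG. The TATA core was found in Nanos2 alone among the 3 members, starting 31 bases before the annotated start, with an overlapping match on the other strand at 32 bases. The CCAAT box was found in Nanos1, at 121 bases, and in Nanos2 on each strand, at 134 and 118 bases. The GC box was found 3 times in Nanos1, with 2 of these matches overlapping, and 1 time in Nanos3, at 216 bases. The TATA core occurred in 22.8%, the GC box in 32.7% and the CCAAT box in 33.8% of the 32851 promoter windows of the same length. A match is a description of the letters and does not show a bound site. Sequences of the array probes were not used here, so that their places within the genes are not given.

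Levels are log2 of the background-subtracted signal after the arrays were scaled to a common 50th percentile and signals below 5 were raised to 5 (2.32 on the log2 scale). Each level can be set against the same probe on other arrays, and not against another probe. Differences were fitted with limma over all 26712 tested probes on the 6 arrays. A difference is named a call where it reached 2-fold and its p, adjusted by Benjamini and Hochberg's method over those probes, was under 0.05. Both Nanos2+/- arrays were on slide 1 and the other 4 arrays on slide 2, so that in each comparison with Nanos2+/- the genotype and the slide cannot be told apart. Nanos2-/-_Tg+ and Nanos2-/- shared a slide. With 2 arrays against 2, an exact permutation test cannot go below 0.333, and the adjusted p-values therefore rest on the spread that limma shares among probes.

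The labelled tissue was checked against cell markers. All 8 tested germ cell markers, 8 Sertoli cell markers and 4 Leydig cell markers were well above background on all 6 arrays, while Pax2 (mesonephros) and Foxl2 (ovarian somatic cells) were so on 0 arrays. Other markers on the lists for those tissues, such as Lhx1 and Rspo1, were measured on all 6 arrays, as were the globins Hba-a1 and Hbb-bt. The marker lists held 0 called genes in each comparison, where 0.0674%, 0.105% and 0.0187% of all tested probes were called. Blood markers were higher in Nanos2-/-_Tg+ than in Nanos2-/- without overlap for 4 of 6 genes, beside 20% of all tested probes, with a median difference of 0.51. Hba-a1 differed by 0.50, Hbb-bt by 0.53 and Alas2 by 0.60, each at a limma adjusted p of 1, and their part in the Nanos2 difference was not tested. The mean level of the germ cell markers ran from 12.46 to 13.09 over the arrays, with both extremes among the arrays on slide 2. In whole gonads, fewer cells of a type and less RNA per cell cannot be told apart. Array-wide control spikes set 1 array apart. Of 10 E1A spike-in controls with 32 spots each, 8 were above the floor, and these were higher by 0.99 to 1.44 (log2) on the second Nanos2+/- array than on the first. The 4 other arrays differed from the first by -0.12 to 0.59. The part of this difference in the results below was not tested.

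Nanos2 was the member with by far the widest range. In Nanos2+/- gonads its level was 9.42 and 10.78 on the 2 arrays. In Nanos2-/- gonads both arrays stood at the floor of 2.32, and in Nanos2-/-_Tg+ gonads the levels were 13.28 and 14.25. The 3 genotypes did not overlap, and Nanos2-/-_Tg+ was the highest and Nanos2-/- the lowest. Of all tested probes, 21.7% were lower without overlap in Nanos2-/- than in Nanos2+/-. In Nanos2-/-_Tg+, 18.6% were higher without overlap than in Nanos2+/- and 20% than in Nanos2-/-.

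Both Nanos2-/- spots were close in brightness to their surroundings. Their median pixel intensities were 71 and 80, beside local backgrounds of 72.5 and 78. Their scaled signals of 2.90 and 3.48 lay near the medians of the 153 negative control spots on the same arrays, 2.91 and 3.33. This is the check of the targeted gene, and it fitted the labels of both Nanos2-/- arrays. Which part of the gene the probe reads, and whether it lies in the part replaced in the LacZ allele, is not given in the sources used here. A transcript of the mutant allele that lacks the probed sequence would not be seen.

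Nanos2 was called lower in Nanos2-/- than in Nanos2+/- gonads. The fitted difference was -7.78 (log2, SE 0.463, n = 2 per genotype, limma adjusted p = 0.00198). This SE, used in each comparison of Nanos2, pools the spread within all genotypes. The Nanos2-/- spread of 0 came from raising both signals to the floor, so that the SE may be too small. Since the Nanos2-/- signal was not well above background, the difference is given as a bound, at least 89.7-fold lower. The call was lost in 5 of 19 distinct alternative fits. The difference was -3.54 with normexp background correction and -5.78 with a floor of 20, both smaller than this bound. The bound sets the brighter genotype's mean against the lowest signal well above background on each array of the dim genotype. It makes no allowance for the gap between the brighter genotype's arrays, and the lower of these alone would give a smaller fold. Of all tested probes, 0.0487% were called lower in this comparison and 0.0187% higher.

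In Nanos2-/-_Tg+ gonads the same probe was at least 1139-fold higher than in Nanos2-/- gonads, with a fitted difference of 11.45 (SE 0.463, limma adjusted p = 0.000452). The call was lost in 4 of 18 distinct alternative fits. The difference was 7.80 with normexp background correction and 9.45 with a floor of 20. Both were smaller than the bound, which is 10.15 on the log2 scale. This comparison lay within 1 slide. Only 0.015% of tested probes, which is 4 probes, were called higher in it, and 0.00374% were called lower. The genotypes differ by the transgene, and 1 probe cannot tell mRNA of the transgene from that of an intact allele.

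The level with the transgene also lay above that of the single intact allele. The difference between Nanos2-/-_Tg+ and Nanos2+/- was 3.67 (95% interval 2.59 to 4.75), or 12.7-fold (6.01 to 26.8). This interval takes in the Nanos2-/- spread of 0, which the floor set. The standard deviations were 0.960 in Nanos2+/- and 0.684 in Nanos2-/-_Tg+. From these 2 genotypes alone, without sharing among probes, the SE was 0.834 in place of 0.463, so that the interval may be too narrow. In the limma fit to their 4 arrays the SE was 0.450. Both Nanos2-/-_Tg+ arrays were above both Nanos2+/- arrays, which held for 18.6% of all tested probes, with 20.3% the other way round. With a limma adjusted p of 0.0564, the difference narrowly missed the threshold. Blocking on replicate number gave a limma adjusted p of 0.0323, and in the fit to the 4 arrays of these 2 genotypes alone it was 0.0146. Of 19 distinct alternative fits with an adjusted p, 5 made the call, with differences from 2.99 to 4.35 and adjusted p from 0.00894 to 0.770 over all 19. The call therefore depends on the setting, while the direction was the same in all 19.

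**Figure D1:**
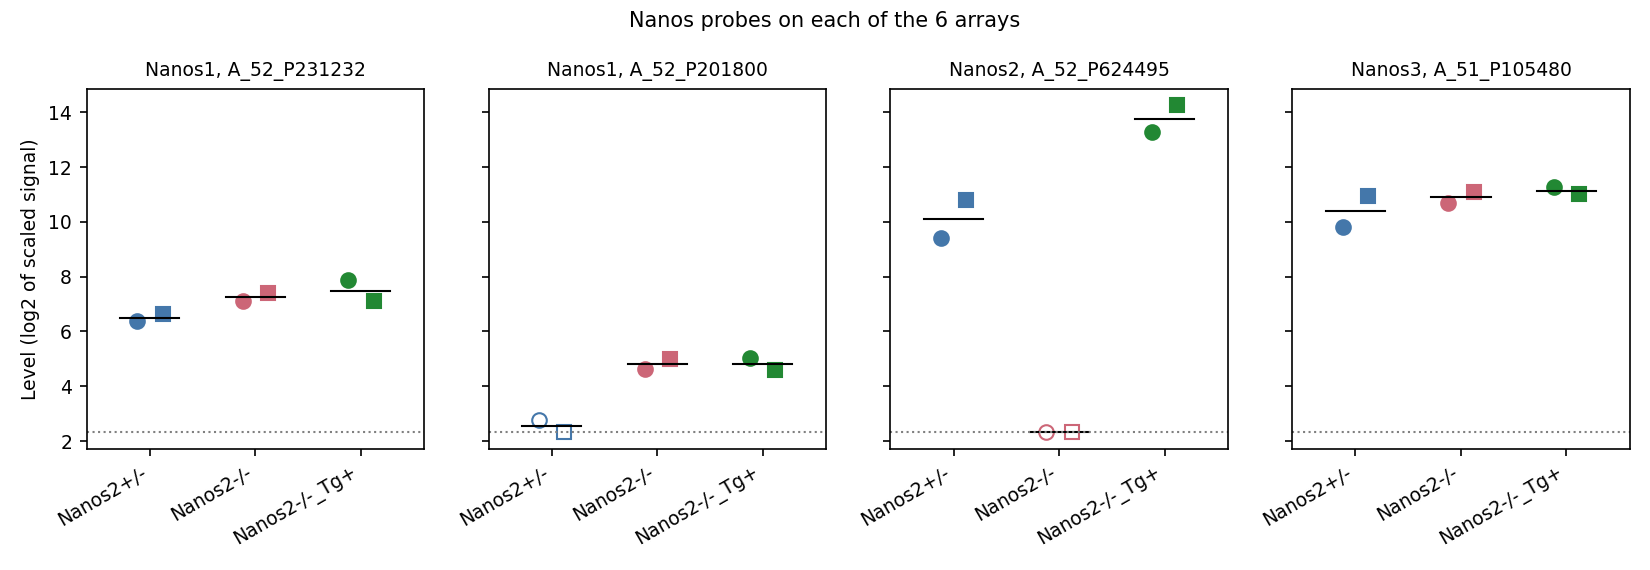
Level of each Nanos probe on the 6 arrays (vertical axis, log2 of the scaled signal; horizontal axis, genotype). Circles are replicate 1, squares replicate 2, open symbols were not well above background, bars are means of 2 arrays, and the dotted line is the floor of 2.32. Nanos2 goes from the floor in Nanos2-/- to 13.28 and 14.25 in Nanos2-/-_Tg+, while Nanos3 stays between 9.82 and 11.27.

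The replicates of Nanos2 were unusually far apart. The Nanos2+/- arrays differed by 1.36 (2.56-fold), a gap reached by 1.79% of tested probes, whose median gap was 0.33. The Nanos2-/-_Tg+ arrays differed by 0.97, which 3.16% of tested probes reached. In Nanos2+/- the second array was the higher, as it was for the E1A spike-ins. Without the first Nanos2+/- array, the difference between Nanos2-/-_Tg+ and Nanos2+/- was 2.99, and without the second it was 4.35.

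Expressed against the mean level of the 8 germ cell markers on the same array, Nanos2 was at -3.10 and -2.08 in Nanos2+/-, at -10.14 and -10.66 in Nanos2-/-, and at 0.52 and 1.17 in Nanos2-/-_Tg+. The order of the genotypes was kept, but this reference could not have changed it. The marker mean ran only from 12.46 to 13.09, while the closest Nanos2 levels of different genotypes were 10.78 and 13.28. The zero of this scale has no meaning, because the probes differ in brightness. Centring all arrays on these markers, an alternative added after seeing the data, gave a difference between Nanos2-/-_Tg+ and Nanos2+/- of 3.44 and a limma adjusted p of 0.00894.

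Nanos3, the member that acts in early germ cells, was measured well above background on all 6 arrays. Nanos2+/- gonads gave levels of 9.82 and 10.96, Nanos2-/- gonads 10.70 and 11.11, and Nanos2-/-_Tg+ gonads 11.27 and 11.01. The first Nanos2+/- array was the lowest of the 6, and the second lay within the range of Nanos2-/-.

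No difference in Nanos3 passed the test. Nanos2-/- minus Nanos2+/- was 0.52 (95% interval -0.33 to 1.36, limma adjusted p = 0.749). Nanos2-/-_Tg+ minus Nanos2+/- was 0.75 (-0.10 to 1.59, limma adjusted p = 0.489), with both Nanos2-/-_Tg+ arrays above both Nanos2+/- arrays, beside 18.6% of all tested probes. Nanos2-/-_Tg+ minus Nanos2-/- was 0.23 (-0.61 to 1.08), with overlapping arrays. These intervals hold differences of 2-fold as well as 0, so that a moderate change in Nanos3 could not have been seen with 2 arrays per genotype.

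The comparison of Nanos3 with Nanos2+/- rested on 1 array. Without the first Nanos2+/- array the difference of Nanos2-/- from Nanos2+/- was -0.053, and without the second it was 1.08. The 2 Nanos2+/- arrays differed by 1.14, which 3.14% of tested probes reached, and again the second array was the higher.

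Nanos2 and Nanos3 deviated together in Nanos2+/-. Between the same arrays the 8 E1A spike-ins above the floor differed by 0.99 to 1.44 in the same direction, and their part was not tested. Nanos2 minus Nanos3 on the same array was -0.40 and -0.18 in Nanos2+/-, a gap of 0.22, where each gene alone had gaps of 1.36 and 1.14. In Nanos2-/-_Tg+ the same quantity was 2.02 and 3.25, a gap of 1.23. There the second array was the higher for Nanos2 and the lower for Nanos3. Referring Nanos2 to Nanos3 therefore narrowed the replicates in the genotype with the endogenous allele and widened them in the genotype with the transgene, as a description of 2 arrays each.

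**Figure D2:**
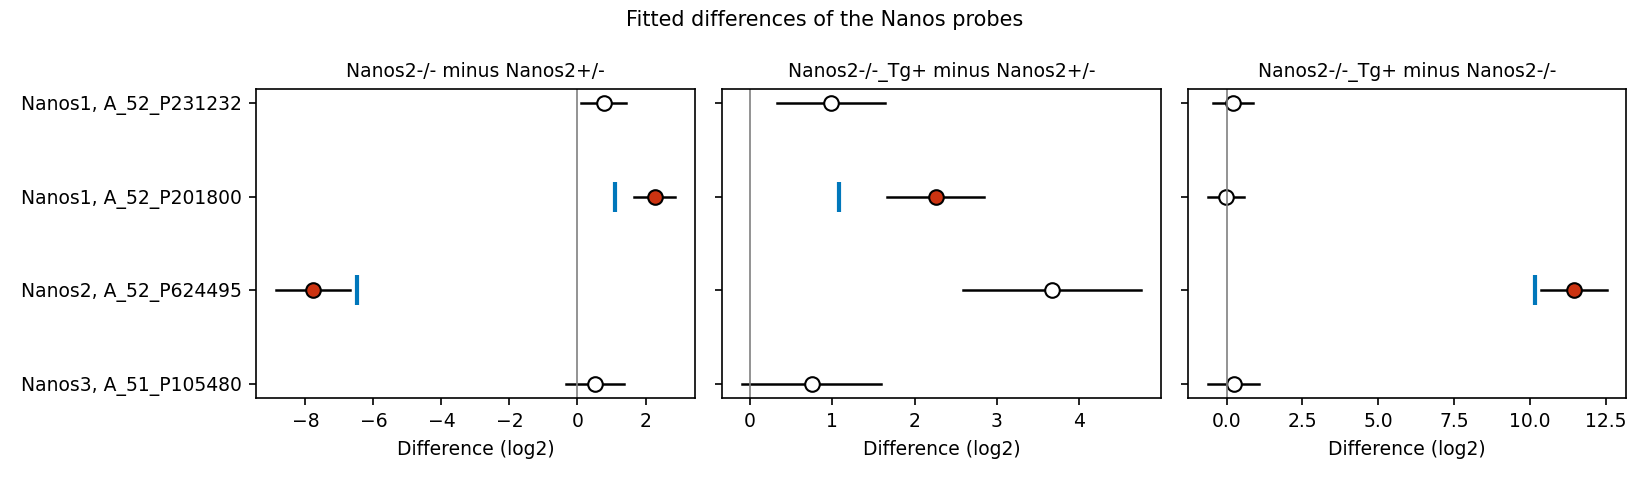
Fitted difference of each Nanos probe (horizontal axis, log2) in the 3 comparisons, with 95% intervals of limma as lines; each panel has its own scale. Filled points were called, and blue ticks mark the bound where 1 genotype was not well above background, such as 89.7-fold for Nanos2 in Nanos2-/- against Nanos2+/-. The Nanos3 intervals cross 0 in all 3 panels.

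Nanos1 was read by 2 probes of very different brightness. The brighter, A_52_P231232, was well above background on all 6 arrays, with levels of 6.37 and 6.62 in Nanos2+/-, 7.12 and 7.41 in Nanos2-/-, and 7.86 and 7.09 in Nanos2-/-_Tg+. Both Nanos2+/- arrays were below the other 4, whose genotypes overlapped.

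By this probe Nanos1 was not called in any comparison. Nanos2-/- minus Nanos2+/- was 0.77 (95% interval 0.11 to 1.43), or 1.71-fold, with a limma adjusted p of 0.468. Nanos2-/-_Tg+ minus Nanos2+/- was 0.98 (0.33 to 1.64), or 1.98-fold, with a limma adjusted p of 0.241. Both intervals lay above 0 before the adjustment over all probes. Of all tested probes, 14.3% and 18.6% had both arrays higher without overlap in these comparisons, and 21.7% and 20.3% both lower, so that the separation of the arrays is a common one here. Nanos2-/-_Tg+ minus Nanos2-/- was 0.21 (-0.44 to 0.87), with overlapping arrays. In that comparison 20% of tested probes were higher without overlap and 11.4% lower.

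The dimmer probe, A_52_P201800, moved the same way and was near the limit of detection. Nanos2+/- arrays gave levels of 2.78 and 2.32, neither of them well above background. Nanos2-/- arrays gave 4.64 and 4.998 and Nanos2-/-_Tg+ arrays 5.02 and 4.59, all well above background. It was called higher in Nanos2-/- than in Nanos2+/- (limma adjusted p = 0.0468) and in Nanos2-/-_Tg+ than in Nanos2+/- (limma adjusted p = 0.0361). The probe entered the test only through Nanos2-/- and Nanos2-/-_Tg+, where it was high. The filter thus favoured this direction, and the calls are not independent support for the brighter probe. As bounds, the differences of the dimmer probe from Nanos2+/- were at least 2.13-fold and at least 2.11-fold. These bounds use the mean of the brighter genotype, and its lower array alone would give a smaller fold. In the second comparison 0.0299% of tested probes were called higher and 0.0749% lower. Between Nanos2-/-_Tg+ and Nanos2-/- the difference was -0.01.

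The spots behind these calls were faint. The median pixel intensities of the dimmer probe were 78 and 76 in Nanos2+/-, beside local backgrounds of 71 and 76. Those of Nanos2-/- were 95.5 and 107, beside 73 and 79. Those of Nanos2-/-_Tg+ were 104 and 98, beside 75 and 74. The scanner software's own error of the signal was 15.2% to 18.8% in the 4 brighter spots, and 52.1% and 99.9% in the Nanos2+/- spots. The call was lost in most alternatives. Of 19 distinct fits with an adjusted p, 5 kept it for Nanos2-/- and 6 for Nanos2-/-_Tg+, each against Nanos2+/-. Blocking on replicate number gave Nanos2-/- a limma adjusted p of 0.0512. With normexp background correction the differences were -0.26 and -0.17, although that setting also moved the median of all tested probes by 0.56 and 0.52. With a floor of 20 they were 0.50 and 0.48. With normexp and with this floor the differences were smaller than the bounds, which are 1.09 and 1.08 on the log2 scale.

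**Figure D3:**
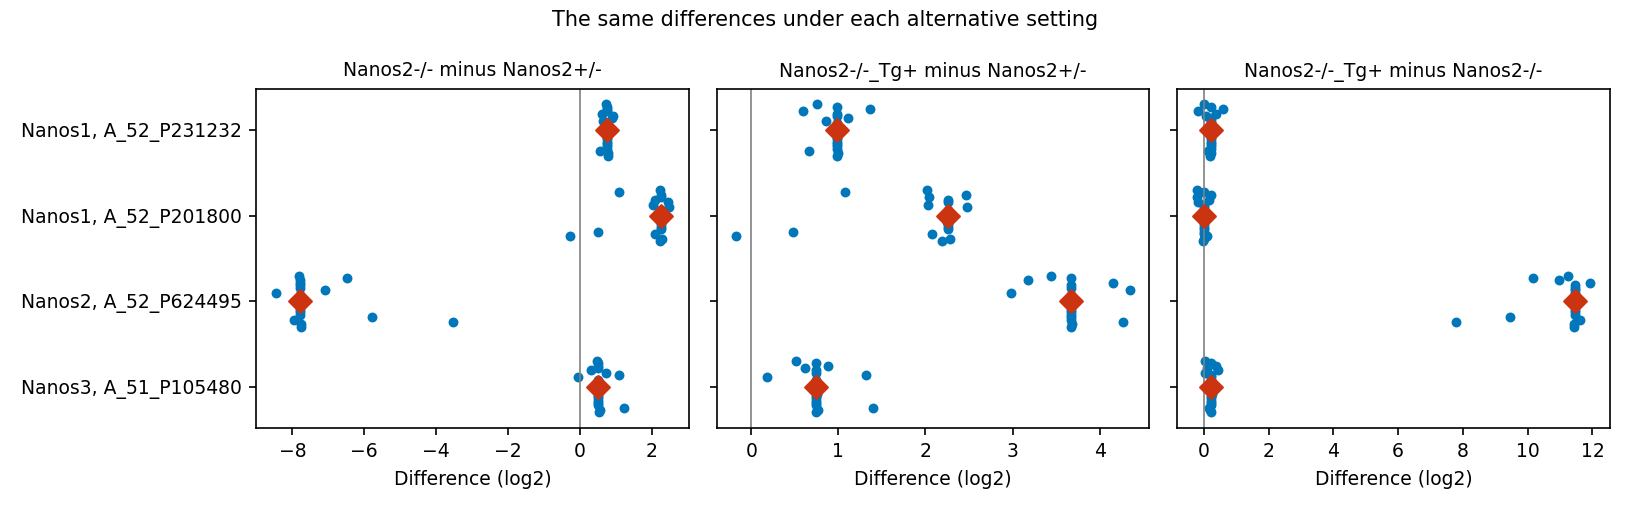
The same differences (horizontal axis, log2, with its own scale in each panel) as reported (red diamonds) and under each alternative setting (blue points, 1 per setting). Nanos2 keeps its side of 0 in all 3 panels, whereas the dimmer Nanos1 probe falls to -0.26 and -0.17 with normexp and to 0.50 and 0.48 with a floor of 20.

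**Figure D4:**
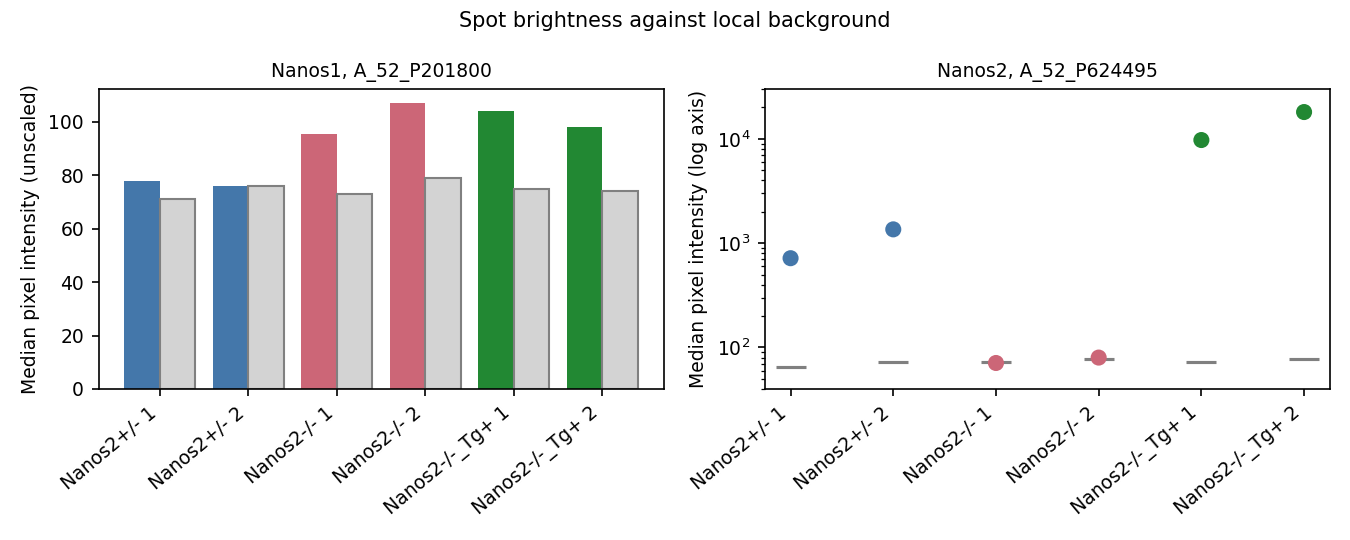
Median pixel intensity of the spot (coloured) and of its local background (grey) on each array, for the dimmer Nanos1 probe as bars on a linear axis from 0 and for the Nanos2 probe as points and ticks on a log axis. The Nanos1 spots reach 107 at most beside backgrounds of 71 to 79, whereas the Nanos2 spots of Nanos2-/-, at 71 and 80, cannot be told from their backgrounds.

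Genes with array patterns most like each member were sought by the root mean square difference (log2) between centred levels over the 6 arrays. Nanos1 was nearest to Onecut2 (0.081), Fbxo2 (0.087) and Xlr4b (0.0996), and its own levels spread by 0.490 around their mean. Nanos3 was nearest to Bpnt1 (0.060), Sesn3 (0.077) and Radil (0.098), with an own spread of 0.474. For Nanos2 no gene came close, since Rph3a differed by 3.74, Agtrap by 3.91 and Cfap65 by 3.95 where Nanos2 itself spread by 4.80. These genes were well above background on only 4, 2 and 3 of the 6 arrays, so that their patterns rest partly on signals near background. With 6 points for 26712 tested probes, such likeness is a description only.

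The tested genes next to each member were not called in any comparison. Mypop, 2278 bases beyond Nanos2, differed by -0.03 in Nanos2-/- and by -0.07 in Nanos2-/-_Tg+, each against Nanos2+/-. Eif3a, a translation initiation factor gene 1202 bases from Nanos1, differed by 0.12 and 0.25. The neighbour of Nanos3 at 1136 bases, 4930432K21Rik, differed by -0.42 and -0.43. The other neighbours of Nanos2 were Pglyrp1, at -0.75 and -0.56 and 97086 bases away, Ccdc61, at -0.16 and -0.28, and Irf2bp1, at 0.04 and 0.03. Pglyrp1 had the lowest values of all 12 neighbours, at limma adjusted p of 0.686 and 0.697. Around Nanos1, Cacul1 differed by 0.23 and 0.19, Dennd10 by 0.19 and 0.28 and Prlhr by 0.00091 and -0.04. Around Nanos3, Cc2d1a differed by -0.20 in both, Zswim4 by -0.34 and -0.31, and D8Ertd738e by -0.23 and -0.38.

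Lists of CCR4-NOT subunits with their adaptors, germ cell RNA-binding proteins, P-body decay genes, upstream signals and NANOS2-associated transcripts were drawn up. Whether NANOS2 acts through or with each of these genes was not tested. The 5 lists held 65 genes in all. Of these 61 were matched to a probe and 60 were tested. Each gene was read by its brightest probe alone, by mean over all arrays. Some genes had more probes, such as Cnot3 with 3 and Taf7l with 2, and their dimmer probes were not looked at. Limma called 0 of them in each of the 3 comparisons, where 0.0674%, 0.105% and 0.0187% of all tested probes were called. At an unadjusted limma p below 0.05 with a 2-fold difference, 2, 2 and 0 passed, beside 2.21%, 2.79% and 0.651% of all tested probes. The medians over the 60 genes were 0.04, 0.13 and 0.06, beside -0.04, -0.01 and 0.03 over all tested probes.

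The CCR4-NOT complex and its Tob and Btg adaptors showed small differences. Over 15 tested genes the differences from Nanos2+/- lay between -0.40 and 0.36 for Nanos2-/- and between -0.45 and 0.30 for Nanos2-/-_Tg+. Cnot3, a subunit of the NOT module, had the lowest values, with levels of 11.22 and 11.11 in Nanos2+/-, 11.01 and 10.53 in Nanos2-/-, and 10.82 and 10.62 in Nanos2-/-_Tg+. Both genotypes were below Nanos2+/- without overlap, beside 21.7% and 20.3% of all tested probes, at limma adjusted p of 0.666 and 0.498. Cnot1, which encodes the scaffold that binds NANOS2, was not analysed here.

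Among the 14 genes of germ cell RNA-binding proteins, Dnd1 had the lowest differences from Nanos2+/-. Dnd1 encodes a partner of NANOS2 that is needed for germ cell survival. Its levels were 13.54 and 13.76 in Nanos2+/-, 12.75 and 12.92 in Nanos2-/-, and 12.88 and 12.79 in Nanos2-/-_Tg+. The arrays of both genotypes lay below Nanos2+/- without overlap, as did 21.7% and 20.3% of all tested probes. The differences were -0.81 and -0.82, at limma adjusted p of 0.257 and 0.176.

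The 14 tested P-body and decay genes ran from -0.83 to 0.51 in Nanos2-/- against Nanos2+/-. The lowest was Ddx6, an RNA helicase of P-bodies, at -0.83 in Nanos2-/- and -0.64 in Nanos2-/-_Tg+ (limma adjusted p = 0.307 and 0.318). The highest was Lsm14a, another P-body component, at 0.51 and 0.67 (limma adjusted p = 0.550 and 0.293). For both genes the arrays of either genotype did not overlap with Nanos2+/-. Of all tested probes, 21.7% and 20.3% were lower without overlap in these comparisons, and 14.3% and 18.6% higher, so that such separation is common here.

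Among the 14 tested upstream signals, Lefty1, a feedback inhibitor of Nodal signalling, had the largest value, at 1.35 and 1.29. Its first Nanos2+/- array was at 7.17 and its second at 10.10, so that the arrays overlapped and the limma adjusted p was 0.718 and 0.633. Fgf9, the somatic signal that promotes Nanos2, had levels from 8.19 to 8.52 over the 6 arrays.

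The last list holds transcripts known to be bound by NANOS2. Of its 5 genes 4 were tested, with median differences of 0.71 and 1.02 from Nanos2+/-. These were the highest medians of the 5 lists, but the list was chosen with earlier results of these data known and is not independent evidence of its direction. Stra8, which drives entry into meiosis, differed by 2.11 and 2.93 (limma adjusted p = 0.330 and 0.138). Taf7l differed by 1.08 and 1.38 (limma adjusted p = 0.363 and 0.179). Neither was called, and between Nanos2-/-_Tg+ and Nanos2-/- their arrays overlapped. Stra8 and Taf7l had the largest differences of the list, and the lowest among its 4 tested genes were 0.20 and 0.45.

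**Figure D5:**
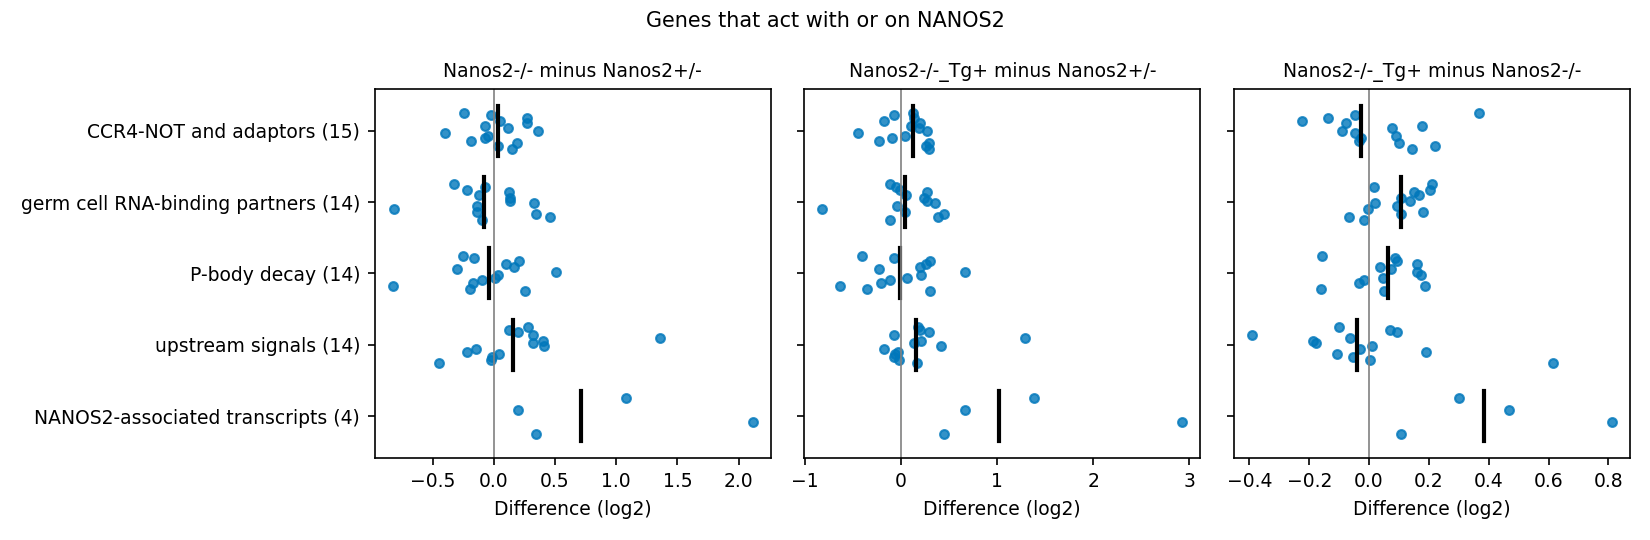
Fitted difference (horizontal axis, log2, with its own scale in each panel) of every tested gene of the 5 lists, 1 point per gene, with list medians as black bars and the number of tested genes in brackets. Most genes lie close to 0, Stra8 reaches 2.11 and 2.93 in the comparisons with Nanos2+/-, and no point was called.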

How the data were processed

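Total RNA of E14.5 male gonads was hybridized to Agilent whole mouse genome arrays with 1 dye, 2 arrays for each of 3 genotypes, and genotypes were taken from the sample labels. The deposited scanner files hold the intensity of each spot after the authors' background subtraction by Feature Extraction (version 9.5 per the submitters' processing notes). The deposited values of the series hold the same intensity and served as an alternative. No columns of per-sample values were left unused.

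Control and outlier spots were removed. Signals were scaled so that all arrays shared their 50th percentile, then set to 5 where lower (the methods set this floor before scaling), and put on log2. Probes detected on both arrays of some genotype were tested with limma 3.58.1 (R 4.3.3, data.table version 1.17.8), fitted over all 6 arrays. The fit was tested on simulated data. Promoters and motifs were handled in pandas 2.3.3 (Python 3.11.15), and figures were drawn in matplotlib 3.10.9. Accessions of 23374 probes matched a RefSeq name. The number of arrays limits the precision.

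The Nanos genes, the lists and the rule for names were chosen with earlier results of these data known. Named were all Nanos probes, called list genes, some of the 3 list genes with the largest difference per comparison, the 3 genes most like each member, and the 2 tested neighbours on each side. Fgf9 and the cell markers were named for their role. List genes, cell markers and neighbours were each read by their brightest probe alone. Of the list genes, 1 item is not reported here. Labels number the replicates without saying what a number shares. Deviations of same-numbered arrays from their genotype means correlated across tested probes at 0.355, 0.313 and 0.259 in the 3 pairs of genotypes, and fits with the number as a block are given where they change a call. Tried as alternatives were scaling to the 75th percentile, quantile normalization, normexp (offset 50, on median signals), the floor before scaling, a floor of 20, 3 other filters, outliers kept, the deposited values of the series, a replicate block, fits to 4 arrays, an intensity trend, the methods' t-test, and each array left out. Normexp on median signals, a floor at each array's lowest signal well above background and centring on germ cell markers were added after seeing the data.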

Additional observations from a re-analysis of the deposited data

How the results depend on the processing

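Normexp on mean signals was not run, because the scanner files used here hold medians. The brighter Nanos1 probe and Nanos3 were not called under any of 23 alternatives. The 60 tested genes of the 5 lists gave 0 calls under each. Nanos2 kept its direction in all 22 alternatives that gave it a value, as it did in each comparison. Below, Nanos2-/- and Nanos2-/-_Tg+ are each set against Nanos2+/- in that order, and Nanos2-/-_Tg+ against Nanos2-/- last; the causes were not tested. Called probes numbered 18, 28 and 5 as reported. For the dimmer Nanos1 probe the differences were 2.23 and 2.19 with the 75th percentile, 2.29 and 2.28 with quantile normalization, 2.27 and 2.25 with an intensity trend, with either wider filter and with the adjusted methods' t-test, and 0.50 and 0.48 with a floor of 20, none of them called. They were 1.09 and 1.08 with a floor at the lowest signal well above background, and 2.24 and 2.02 when centred on germ cell markers, again not called. With normexp they turned to -0.26, -0.17 and, in the last comparison, 0.090. Nanos2 lost its call with normexp (-3.54, and 7.80 last) and with a floor of 20 (-5.78, and 9.45 last). It also lost it at -7.78 with probes well above background on at least 1 array, with no filter and with the adjusted methods' t-test, and at 11.45 in the last comparison with the latter pair. Nanos2 also gained a call for Nanos2-/-_Tg+ against Nanos2+/-. Among settings that kept both arrays of each, this was so at 3.67 with 4 arrays, an intensity trend and the methods' unadjusted t-test. It was so too at 3.44 when centred on germ cell markers, and with the replicate block given below.

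Called probes numbered 5 and 10 with the 75th percentile and with quantile normalization, 0, 0 and 0 with normexp, with a floor of 20 and with the adjusted methods' t-test, and 153, 234 and 40 with that test unadjusted. They numbered 1, 5 and 1 when well above background on all 6 arrays (where Nanos2 and the dimmer Nanos1 probe had no value), 3, 5 and 2 on at least 1 array, 2, 4 and 0 with no filter, 38, 85 and 1 with 4 arrays, 5, 18 and 3 with an intensity trend, and 6, 8 and 3 with the floor at the lowest signal.

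With a replicate block the dimmer Nanos1 probe lost its call at 2.27 (limma adjusted p = 0.0512) in Nanos2-/-, Nanos2 gained one at 3.67 (0.0323) in Nanos2-/-_Tg+, and 145 probes were called there; no other member's call changed.

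Leaving out 1 of 2 arrays leaves a lone array that is assumed to vary like the other genotypes, and where the array left out is of the genotype not compared, the test equals that with 4 arrays. Leaving out each array in turn gave 13 to 47, 21 to 85 and 1 to 29 called probes. Nanos2 ranged from -8.46 to -7.10, from 2.99 to 4.35 and from 10.96 to 11.93. In the second comparison it was 4.15 without the first Nanos2-/-_Tg+ array and 3.18 without the second. The dimmer Nanos1 probe ranged from 2.04 to 2.50, from 2.02 to 2.48 and from -0.23 to 0.20. It lost its call against Nanos2+/- without either Nanos2+/- array, without the second Nanos2-/- array in the first comparison and without the first Nanos2-/-_Tg+ array in the second. The brighter Nanos1 probe ranged from -0.17 to 0.60 in the last comparison and Nanos3 from -0.053 to 1.08 in the first. Signals near background limit Nanos2 in Nanos2-/- and Nanos1 in Nanos2+/-.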

Other observations

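Among germ cell and blood markers, some were higher on the array numbered 2 in each genotype and others lower, in genes chosen after their values were seen. Pou5f1, a pluripotency gene of early germ cells, was at 10.62 and 12.43 in Nanos2+/-, at 10.53 and 12.39 in Nanos2-/- and at 10.78 and 12.61 in Nanos2-/-_Tg+. Hbb-y, an embryonic globin, was at 13.01 and 14.69, at 13.46 and 13.84, and at 12.89 and 14.57. Other genes of the same lists went the other way. Alas2, of haem synthesis, was at 12.09 and 11.99, at 11.98 and 11.62, and at 12.50 and 12.31, and the adult globin Hbb-bt was also lower on the array numbered 2 in all 3 genotypes. Mael was lower there in Nanos2+/- and Nanos2-/-_Tg+ and higher in Nanos2-/-. Nanos2 was likewise higher on the array numbered 2 in both genotypes where it was measured, whereas Nanos3 was higher there in Nanos2+/- and Nanos2-/- and lower in Nanos2-/-_Tg+.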
